A study of Rattus norvegicus with 6 samples.

Results

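The genes described here are the rat RT1 genes and the genes of antigen processing around them, measured in rBMECs after exposure to homocysteine (Hcy). RT1 is the major histocompatibility complex (MHC) of the rat. The rows of the deposited count table were chosen by symbol: every row whose symbol starts with RT1-, the antigen presentation genes B2m, Tap1, Tap2, Tapbp, Psmb8, Psmb9, Psmb10, Nlrc5, Ciita and Cd74, and 3 further loci. These rules gave 44 of the 33566 rows, 41 of them chosen by name. The 3 further loci, LOC103690108, AABR07044362.1 and LOC103689996, were chosen because their counts differ between Hcy and Veh in these libraries, so their values are given as a description and without a test. rBMECs are primary endothelial cells of brain capillaries, isolated here from Sprague-Dawley (SD) rats 18 to 22 days old and used after a single passage. The labels name the cerebral cortex as their source and the study's methods the forebrain. The Hcy group had 3 libraries (Hcy1, Hcy2 and Hcy3) from cells given Hcy for 24 h, and the vehicle group (Veh) had 3 libraries (Veh1, Veh2 and Veh3) from cells given the ddH2O in which Hcy was dissolved. The labels give both a dose of 100 µM Hcy and a prepared solution of 50 µM. Neither group carried any other treatment or any genetic change named in the labels. SD rats are outbred, and which rats gave which libraries is not given in the sources used here, so the p-values below measure only the spread between these libraries. RT1 haplotypes of such rats can differ in which class I copies they carry, and if Hcy and Veh cultures came from different rats, haplotype and treatment cannot be told apart.

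MHC class I molecules pair a heavy chain with beta-2-microglobulin and show peptides from inside the cell to CD8+ T cells. The peptides are cut by the proteasome, carried into the endoplasmic reticulum by the Tap transporter and loaded with the help of tapasin. MHC class II molecules show peptides from endosomes to CD4+ T cells and are made mainly by professional antigen-presenting cells, while most other cells, endothelium included, raise them under interferon-gamma. In the rat, RT1-A genes are the classical class I genes, and the RT1-CE, RT1-N, RT1-S, RT1-T24 and RT1-M genes form families of class I genes, many of them nearly identical in sequence to one another.

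Library totals lay between 14024997 and 16764584 counts, and the 44 rows together took between 0.182% and 0.214% of the counts of a library. A level of 3 counts was taken as the floor of detection. In CPM, the counts scaled by library totals and edgeR's TMM factors, this floor lay between 0.178 and 0.215 and covers counting error only. The endothelial identity of the cells was checked on 11 marker genes, whose summed level was 10496 to 10902 CPM in Hcy and 8999 to 10412 CPM in Veh, without overlap. Pecam1, also on the list, had no row under that symbol. Vwf, Kdr, Flt1 and Tie1 were higher in every Hcy library, as were 10.8% of all genes tested. Eng and Tek were lower, as were 9.27%. None of the 11 had an edgeR adjusted p of at most 0.05, and their median log2 fold change was 0.13. Markers of cells that carry class II as a rule were low: the leukocyte gene Ptprc had 0 counts in every library, the 14 macrophage and microglia markers, 4 of them at 0 in every library, summed to 8.19 to 8.69 CPM in Hcy and 8.55 to 10.9 CPM in Veh, and the 5 B cell markers summed to 0 CPM in every Hcy library and at most 0.191 CPM in Veh. The 6 dendritic cell markers were the exception, with 205.7 to 211.4 CPM in Hcy and 128 to 168 CPM in Veh. Nearly all of that sum came from Itgax and Clec9a, and their part in the results below was not tested. The 7 pericyte and smooth muscle markers summed to 95.2 to 108 CPM in Hcy and 126 to 170 CPM in Veh, nearly all of it the smooth muscle actin gene Acta2, which fell by 0.64 on the log2 scale (edgeR adjusted p = 0.0248). Of the other 6, Kcnj8 had a log2 fold change below 0 and 5 (Pdgfrb, Cspg4, Rgs5, Abcc9 and Des) above 0, none of which passed, and the median of the list was 0.73. The 4 fibroblast markers summed to 35.7 to 57.8 CPM in Hcy and 57.5 to 83.9 CPM in Veh, nearly all of it Col1a1, which was lower in every Hcy library (log2 fold change -0.52, edgeR adjusted p = 0.264). The other 2 tested, Lum and Pdgfra, had log2 fold changes of 0.53 and 0.12 that did not pass. The tested markers of the pericyte and smooth muscle list and of the fibroblast list thus did not move one way. The 5 tested dendritic cell markers all had log2 fold changes above 0, with a median of 0.28, and none passed. In bulk libraries, fewer cells of a type and less RNA per cell cannot be told apart, and the part of these markers in the results below was not tested. Positions are those listed in the deposited table, which names no build, and rows of near-identical copies or overlapping genes can have shared or lost reads because the handling of strand and of reads with several matches is not given in the sources used here.

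The promoter sequences of the 3 genes that passed the test below (RT1-S3, Tapbp and RT1-T24-4) and of the most abundant heavy chain and its light chain (RT1-A2 and B2m), which did not, are shown for comparison. Each is the 250 bases before the gene's start, 5′ to 3′ on the gene's strand, from RefSeq on GRCr8. RT1-S3 is at chr20:2675278-2675527 on the plus strand, Tapbp at chr20:4967878-4968127 on the minus strand, RT1-T24-4 at chr20:2689083-2689332 on the plus strand, RT1-A2 at chr20:4872621-4872870 on the plus strand and B2m at chr3:129549080-129549329 on the plus strand. Capitals mark matches on either strand to 3 motifs known from class I promoters: the interferon-stimulated response element (ISRE, the letters GAAA followed after any 2 bases by GAAA again), the kappaB site (GGGATTCCC) and the CCAAT box.
RT1-S3: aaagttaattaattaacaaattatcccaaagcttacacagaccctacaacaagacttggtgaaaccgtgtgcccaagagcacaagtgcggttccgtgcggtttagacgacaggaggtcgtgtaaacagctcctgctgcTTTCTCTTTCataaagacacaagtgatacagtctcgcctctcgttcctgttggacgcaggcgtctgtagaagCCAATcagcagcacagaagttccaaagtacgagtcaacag
Tapbp: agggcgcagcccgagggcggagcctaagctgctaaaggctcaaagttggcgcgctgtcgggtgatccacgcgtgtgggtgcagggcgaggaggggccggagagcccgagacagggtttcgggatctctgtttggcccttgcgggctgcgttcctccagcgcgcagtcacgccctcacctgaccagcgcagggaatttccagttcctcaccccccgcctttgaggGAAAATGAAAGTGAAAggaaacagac
RT1-T24-4: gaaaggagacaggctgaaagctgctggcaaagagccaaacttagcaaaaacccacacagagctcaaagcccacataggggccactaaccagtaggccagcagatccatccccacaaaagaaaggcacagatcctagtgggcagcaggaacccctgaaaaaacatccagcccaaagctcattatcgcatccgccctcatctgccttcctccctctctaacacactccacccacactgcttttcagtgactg
RT1-A2: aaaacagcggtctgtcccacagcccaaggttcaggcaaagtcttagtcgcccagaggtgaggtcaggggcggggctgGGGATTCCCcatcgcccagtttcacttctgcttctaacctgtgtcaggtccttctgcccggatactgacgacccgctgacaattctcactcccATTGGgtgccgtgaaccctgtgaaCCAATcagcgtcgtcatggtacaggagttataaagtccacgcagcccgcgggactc
B2m: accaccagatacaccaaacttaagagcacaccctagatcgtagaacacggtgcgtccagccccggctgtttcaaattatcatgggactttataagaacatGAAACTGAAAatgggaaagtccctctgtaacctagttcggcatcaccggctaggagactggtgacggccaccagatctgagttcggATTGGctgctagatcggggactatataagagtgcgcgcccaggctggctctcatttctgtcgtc

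Of the 44 rows, 35 matched a RefSeq promoter by symbol, among them 25 of the 30 rows that had at least 10 counts summed over the libraries. The ISRE letters were present in 3.41% of the 33469 RefSeq windows of this length and in 7 of those 25 members, namely B2m, Tap1, Tap2, Tapbp, Psmb10, RT1-N3 and RT1-S3. Tapbp has overlapping ISRE matches that start 26 and 20 bases before its start, and the match of RT1-S3 starts 112 bases before. The kappaB letters were present in 0.272% of all windows and in 4 members, all of them class I heavy chain genes: RT1-A1, RT1-A2, RT1-CE4 and RT1-CE10. The CCAAT box was found in 34.0% of all windows and in 17 of the 25 members. The 33469 windows belong to 27457 genes, and a member was counted if any of its windows matched. The shares of windows are thus not shares of genes. RT1-T24-4 has none of these motifs in its window, while RT1-T24-1 and RT1-T24-3 have a CCAAT box. A match is a run of letters in a window and not evidence that a factor binds there.

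The measured question was whether RT1 and antigen presentation genes differed between Hcy and Veh rBMECs. Of the 41 rows chosen by name, 27 had enough counts to be tested, 14 did not, and 8 of these had 0 counts in every library. RT1-S3 and RT1-T24-4, class I heavy chain genes, and Tapbp, which encodes tapasin, rose in Hcy, each by less than 2-fold. These 3 rows are 11.1% of the 27 tested. Of the 14603 genes tested, 2.34% had an adjusted p of at most 0.05 (edgeR quasi-likelihood test, Benjamini-Hochberg adjustment over all genes tested), 1.32% higher and 1.01% lower in Hcy. The members were chosen with earlier results of these data known, so the shares in this paragraph are set side by side as a description. No row chosen by name passed this limit in the lower direction. When a change of 2-fold or more was also asked for, 0 of the 27 passed with edgeR or with DESeq2, against 0.486% of all genes (0.253% higher, 0.233% lower). An unadjusted p under 0.05 was found in 6 of the 27 with edgeR (13.4% of all genes). By edgeR 5 of these 6 were higher in Hcy, where the share of all genes was 7.44%, and 1 was lower, where it was 5.95%. In 7 of the 27 rows (25.9%) no Hcy library overlapped the Veh libraries, against 20.1% of all genes (10.8% higher, 9.27% lower). RT1-CE7, RT1-S3, RT1-T24-3, RT1-T24-4 and Tapbp were higher in every Hcy library, and RT1-N2 and Nlrc5 were lower. The median log2 fold change of the 27 rows was 0.13, with 18 above 0 and 9 below, and that of all genes tested was -0.02.

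**Figure D1:**
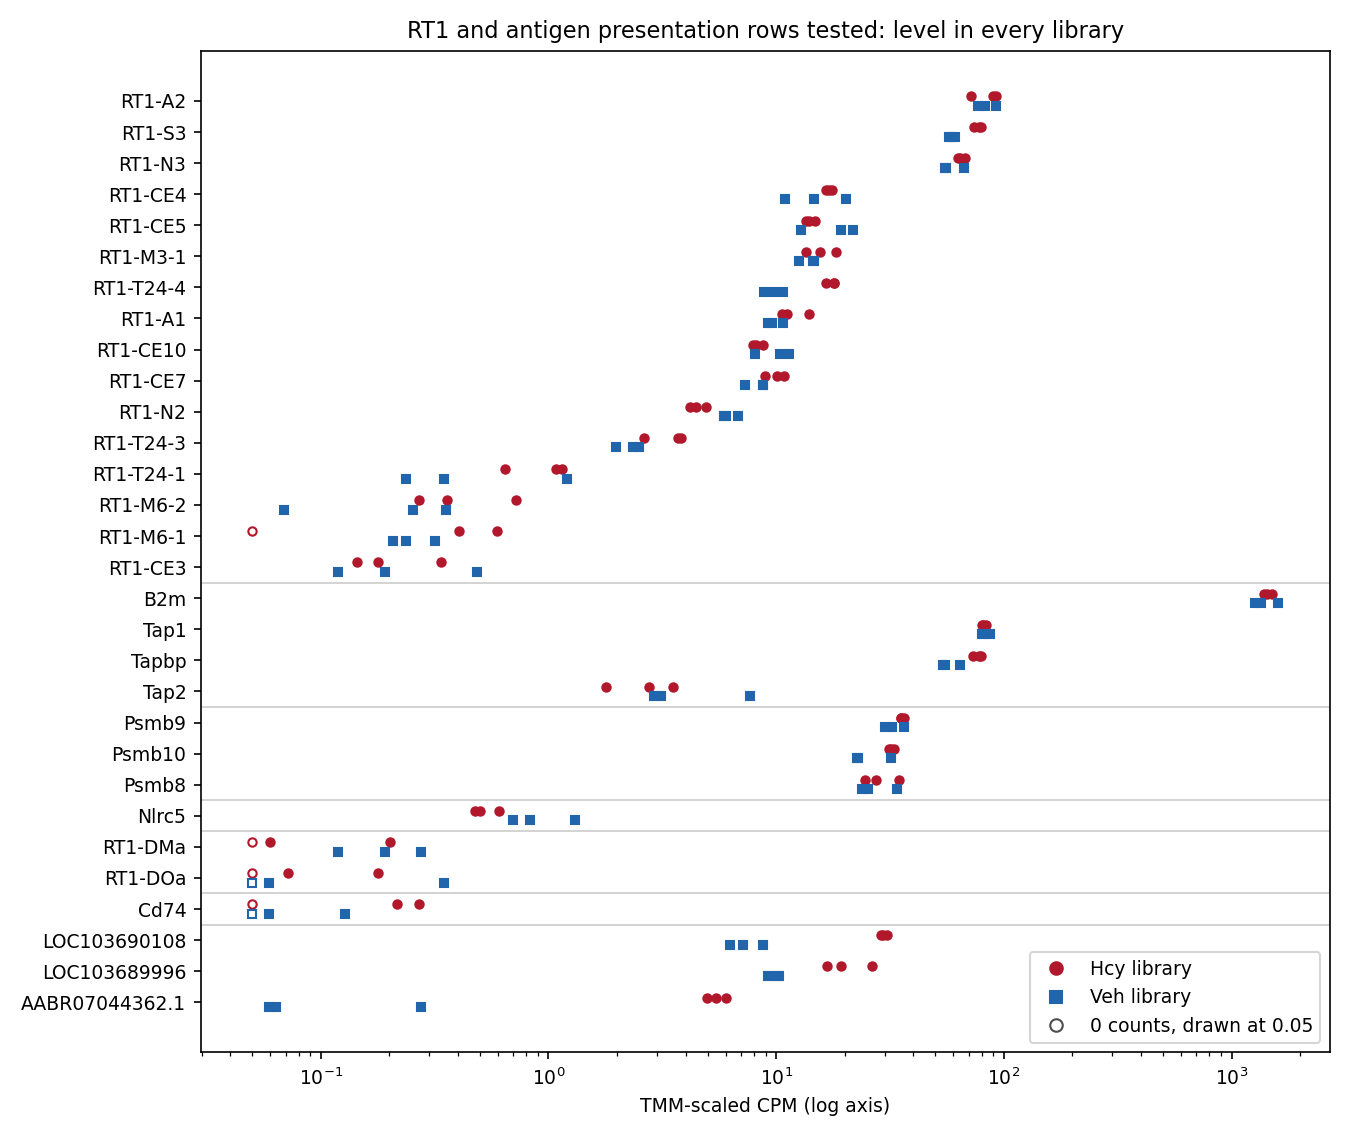
Level of each of the 30 tested rows in every library, in TMM-scaled CPM on a log axis, with Hcy libraries as circles and Veh libraries as squares, grouped by role from class I heavy chains at the top to the 3 loci chosen on their difference at the bottom. B2m stands highest at 1269 to 1607 CPM, the class II rows and Cd74 lie at or near the floor, and the groups do not overlap for RT1-S3, RT1-T24-4, Tapbp, the 3 loci, RT1-CE7, RT1-T24-3, RT1-N2 and Nlrc5.

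Class I heavy chains were the most numerous members, with 21 rows, of which 16 were tested and 3 (RT1-M2, RT1-M4 and RT1-M5) had 0 counts in every library. RT1-A2, RT1-S3 and RT1-N3 carried 68.2% of all class I counts. Per kilobase of the table's gene length, their levels over all libraries were 50.5, 38.5 and 34.3 CPM, and each other class I row chosen by name stood at 8.70 CPM per kilobase or less.

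RT1-S3 had 77.6, 74.2 and 79.1 CPM in Hcy1, Hcy2 and Hcy3 and 58.7, 57.5 and 61.2 CPM in Veh1, Veh2 and Veh3. Its means were 77.0 ± 2.51 and 59.1 ± 1.90 CPM (SD, n = 3), and the log2 fold change was 0.38 (SE 0.07, edgeR adjusted p = 0.0283). Every Hcy library lay above every Veh library. Its adjusted p rose to 0.136, 0.0888 and 0.164 without Hcy1, Hcy2 and Hcy3, and to 0.114 and 0.117 without Veh1 and Veh2, and the log2 fold change stayed between 0.36 and 0.41. With the replicate number as a block the adjusted p was 0.0595 and the log2 fold change 0.38.

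RT1-T24-4 had 16.5, 18.0 and 18.0 CPM in the Hcy libraries and 8.85, 10.8 and 9.83 CPM in the Veh libraries. Its means were 17.5 ± 0.863 and 9.81 ± 0.962 CPM (SD, n = 3), with a log2 fold change of 0.84 (SE 0.12, edgeR adjusted p = 0.0114). It had the largest log2 fold change of the 3 rows that passed, and its groups were well apart. Without Hcy1, Hcy2 and Hcy3 in turn the adjusted p was 0.0521, 0.0574 and 0.0700. The neighbouring copy RT1-T24-3 had 3.81, 2.62 and 3.70 CPM in Hcy and 2.49, 1.98 and 2.35 CPM in Veh, also without overlap, but its log2 fold change of 0.57 (SE 0.24) had an edgeR adjusted p of 0.336.

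The classical genes did not pass. RT1-A2, the most abundant heavy chain gene, had 92.8, 72.1 and 89.9 CPM in Hcy and 76.8, 82.7 and 92.4 CPM in Veh. The groups overlapped throughout, with a log2 fold change of 0.02 (SE 0.11, edgeR adjusted p = 0.972). RT1-A1 had 195, 158 and 187 counts in the Hcy libraries and 161, 168 and 133 in the Veh libraries, which is 11.9 ± 1.82 and 9.82 ± 0.784 CPM (SD, n = 3). For this row the log2 fold change was 0.28 (SE 0.15, edgeR adjusted p = 0.479), and the groups overlapped because Hcy2 at 10.6 CPM lay just under Veh2 at 10.7 CPM. Without Hcy1 the log2 fold change of RT1-A1 was 0.15. RT1-A1 and RT1-A2 overlap on the same strand in the table, so reads of the shared stretch can belong to either.

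RT1-N3, the third of the abundant class I rows, had means of 64.8 ± 2.36 CPM in Hcy and 59.2 ± 6.73 CPM in Veh (SD, n = 3), and the groups overlapped. RT1-N2, of the same family, had 4.45, 4.16 and 4.89 CPM in Hcy and 6.00, 5.93 and 6.78 CPM in Veh. RT1-N2 was thus lower in every Hcy library, with a log2 fold change of -0.47 (SE 0.16) that did not pass (edgeR adjusted p = 0.232). The 5 tested rows of the RT1-CE family did not move one way: RT1-CE4 and RT1-CE7 had log2 fold changes of 0.16 and 0.26, and RT1-CE5, RT1-CE10 and RT1-CE3 of -0.34, -0.27 and -0.23, with edgeR adjusted p between 0.479 and 0.939. With a library left out, the value ran from -0.54 to -0.19 for RT1-CE5 and from -0.40 to -0.17 for RT1-CE10. RT1-M3-1, of the RT1-M family, had 13.6, 15.6 and 18.3 CPM in Hcy and 14.5, 14.6 and 12.6 CPM in Veh, with overlap. RT1-M6-1, RT1-M6-2 and RT1-CE3 each had 22 to 31 counts over all libraries, and RT1-CE1 and RT1-S2 had 7 and 5 counts and were not tested.

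A sum over all 21 class I rows does not change with how counted reads were split among those rows. Reads lost, or counted in several rows, where copies overlap or are nearly identical can still change it. This sum was 338, 313 and 344 CPM in Hcy and 285, 286 and 321 CPM in Veh. The means were 331 ± 16.6 and 297 ± 20.9 CPM (SD, n = 3), a ratio of 1.11, and Hcy2 lay below Veh3. The ratio was 1.13 when the other chromosome 20 rows whose deposited protein match is a class I antigen were added, except LOC103690108 and AABR07044362.1. With only those 2 loci added, which were chosen for being higher in Hcy, it was 1.20. Among the 16 tested class I rows, 12 had a log2 fold change above 0 and 4 below, with a median of 0.22.

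**Figure D2:**
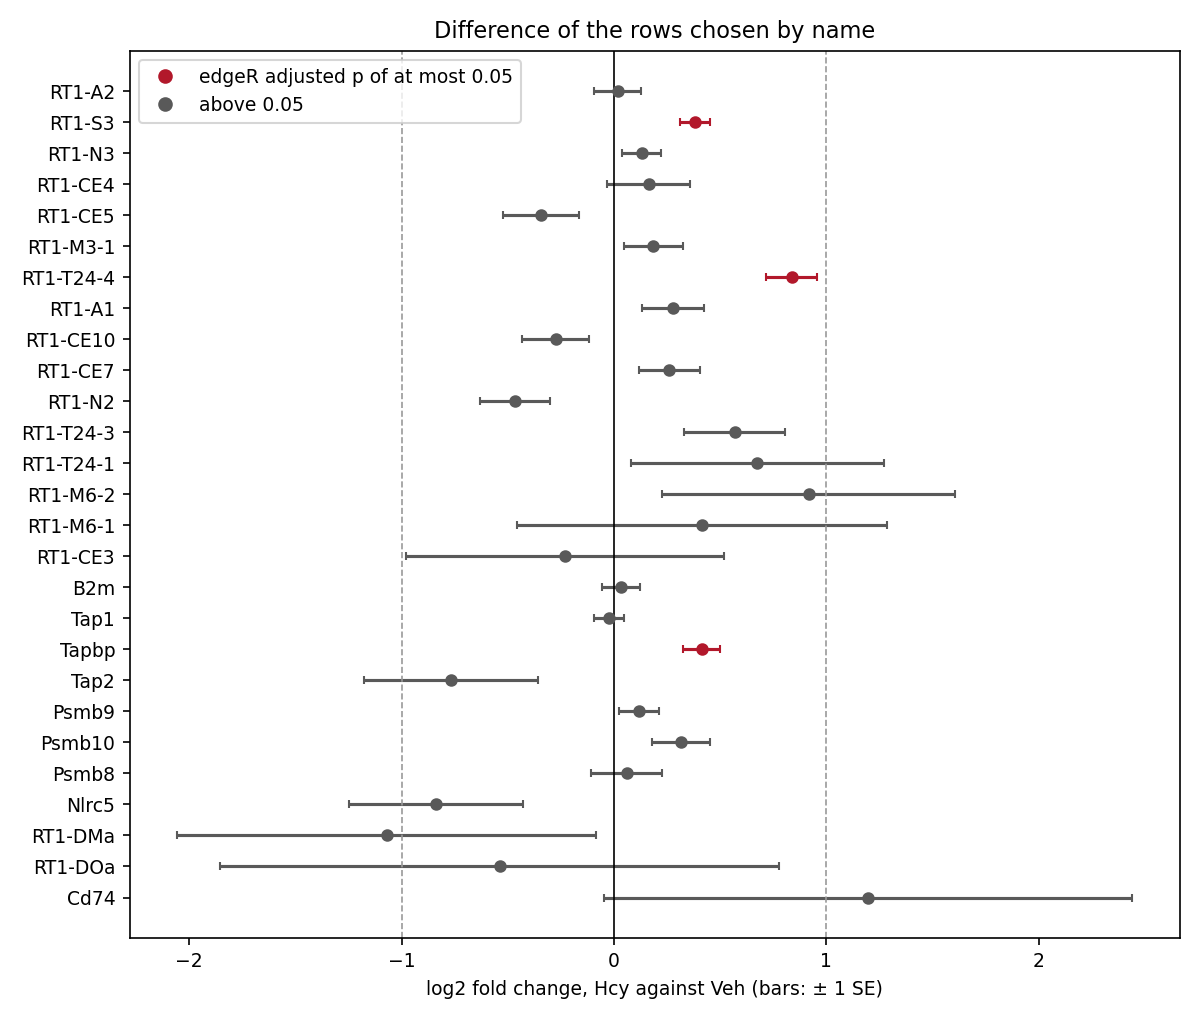
Log2 fold change of Hcy against Veh for each of the 27 tested rows chosen by name, with bars of 1 SE from the edgeR fit, and dashed lines at -1 and 1. The 3 rows with an adjusted p of at most 0.05 (RT1-S3 at 0.38, RT1-T24-4 at 0.84 and Tapbp at 0.41) are above 0 and below 1, and the widest bars belong to the rows with the fewest counts.

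The light chain and the loading machinery split by member. B2m, which encodes beta-2-microglobulin, was by far the most abundant member, with 781 CPM per kilobase. It had 1504, 1396 and 1429 CPM in Hcy and 1269, 1353 and 1607 CPM in Veh. The highest and the lowest of these libraries were both Veh, and the log2 fold change was 0.03 (SE 0.09, edgeR adjusted p = 0.927).

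Tapbp encodes tapasin, which holds empty class I molecules at the peptide transporter. It had 79.3, 73.3 and 77.6 CPM in Hcy and 63.9, 55.0 and 54.0 CPM in Veh. Its means were 76.7 ± 3.10 and 57.6 ± 5.44 CPM (SD, n = 3), and the log2 fold change was 0.41 (SE 0.09, edgeR adjusted p = 0.0479), and the groups did not overlap. The adjusted p lay just under the threshold of 0.05. It was 0.0525 with library totals in place of TMM and 0.0562 with the replicate number as a block. Without Hcy1, Hcy2 and Hcy3 it was 0.194, 0.118 and 0.212, and without Veh2 it was 0.171.

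Tap1, the first chain of the peptide transporter, had 83.7, 80.3 and 81.4 CPM in Hcy and 87.0, 79.9 and 82.3 CPM in Veh. The spread between libraries was narrow and the groups overlapped, with a log2 fold change of -0.02 (SE 0.07, edgeR adjusted p = 0.939). Tap2, the second chain, was counted at 3.52, 2.75 and 1.79 CPM in Hcy and 2.91, 7.65 and 3.11 CPM in Veh. Veh2 stood apart at 120 counts, where the other libraries had 30 to 49, and the log2 fold change of -0.77 (SE 0.41) had an edgeR adjusted p of 0.486. Without Veh2 it was -0.17. Per kilobase, Tap2 stood at 1.49 CPM and Tap1 at 19.9 CPM.

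The immunoproteasome subunits, which replace the constitutive catalytic subunits and change the peptides that are cut, were all expressed and none passed the test. Psmb9 had 36.5, 35.4 and 35.3 CPM in Hcy and 32.1, 29.9 and 36.6 CPM in Veh (log2 fold change 0.12, SE 0.09, edgeR adjusted p = 0.668). Without Veh2 its log2 fold change was 0.05. Psmb8 had 27.6, 24.4 and 34.5 CPM in Hcy and 25.3, 23.8 and 34.1 CPM in Veh (log2 fold change 0.06, SE 0.17, edgeR adjusted p = 0.927). In both rows the groups overlapped, and Psmb8 was highest in replicate 3 of each group. Psmb10 had 32.1, 32.8 and 31.3 CPM in Hcy and 22.6, 22.9 and 32.0 CPM in Veh. Veh3 alone reached the Hcy level, and the log2 fold change was 0.31 (SE 0.14, edgeR adjusted p = 0.365). Without Veh3 the log2 fold change of Psmb10 was 0.50 and its adjusted p 0.00843.

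The transactivators were close to the limit of what was counted. Nlrc5, which drives class I genes, had 7, 9 and 8 counts with Hcy and 22, 11 and 12 with vehicle, or 0.503, 0.605 and 0.477 against 1.31, 0.701 and 0.831 CPM. The Hcy libraries were all lower than the Veh libraries, and the log2 fold change was -0.84 (SE 0.41, edgeR adjusted p = 0.441). Without Veh1 the log2 fold change of Nlrc5 was -0.53. Ciita, which drives class II genes, had 5 counts in Hcy2 and 0 in each other library, and was not tested.

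Class II genes were at or near the floor in both groups. The 10 class II rows together had 1, 4 and 5 counts with Hcy and 9, 3 and 9 with vehicle. RT1-Ba, RT1-Db2, RT1-DMb, RT1-DOb and RT1-Ha had 0 counts in every library, RT1-Bb and RT1-Db1 had 2 counts each, and RT1-Da had 1 count in Hcy3, 3 in Veh1 and 0 elsewhere. RT1-DMa, a chain of the molecule that loads class II peptides, had 13 counts and RT1-DOa, a chain of its regulator, had 10. Their edgeR adjusted p values were 0.718 and 0.917. Cd74, the invariant chain that escorts class II molecules, had 3, 4 and 0 counts in Hcy and 1, 2 and 0 in Veh. At such counts a small difference between the groups, or a fall, was not detectable.

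The 3 loci chosen on their difference lie in the same stretch of chromosome 20 as the RT1 rows, and 0.253% of all genes tested passed both limits in the direction that was used to choose them. LOC103690108 is listed at chr20:3791407-3794027 on the minus strand, and its deposited protein match is a rat class I heavy chain. Counts were 402, 457 and 492 with Hcy and 148, 112 and 91 with vehicle, or 28.9, 30.7 and 29.4 against 8.79, 7.14 and 6.30 CPM. The means were 29.6 ± 0.945 and 7.41 ± 1.27 CPM (SD, n = 3). The ratio of summed counts, scaled by library size, was 3.97 (95% interval 3.53 to 4.48, exact binomial, counting error only).

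AABR07044362.1 is listed at chr20:3135791-3140610 on the plus strand as an unprocessed pseudogene, next to RT1-N2, with a class I protein match. Its Hcy libraries held 84, 74 and 91 counts, and its Veh libraries held 1, 1 and 4. In Veh1 and Veh2 it was therefore under the floor of 3 counts, while each Hcy library held 4.97 to 6.03 CPM, and the row passed the count minimum through its Hcy counts. The ratio of summed counts was 42.8, with a wide 95% interval of 19.4 to 118 (exact binomial, counting error only) because Veh held 6 counts in all, 4 of them in Veh3. The fitted log2 fold change of 5.33 was 6.30 without Veh3 and 4.44 with a prior count of 2, so its size rests on these few counts.

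LOC103689996 is listed at chr20:5198258-5212624 on the minus strand, and its deposited protein match is rat Tap2. Counts were 233, 392 and 323 with Hcy and 174, 159 and 133 with vehicle, or 16.7, 26.3 and 19.3 against 10.3, 10.1 and 9.21 CPM. The Hcy libraries varied more among themselves than the Veh libraries, and the ratio of summed counts was 2.10 (95% interval 1.88 to 2.35, exact binomial, counting error only). With the 2 class I loci added, the class I sum became 366 ± 16.1 CPM in Hcy and 305 ± 20.01 CPM in Veh (SD, n = 3), with a ratio of 1.20, which is a description since both loci were chosen for being higher in Hcy.

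**Figure D3:**
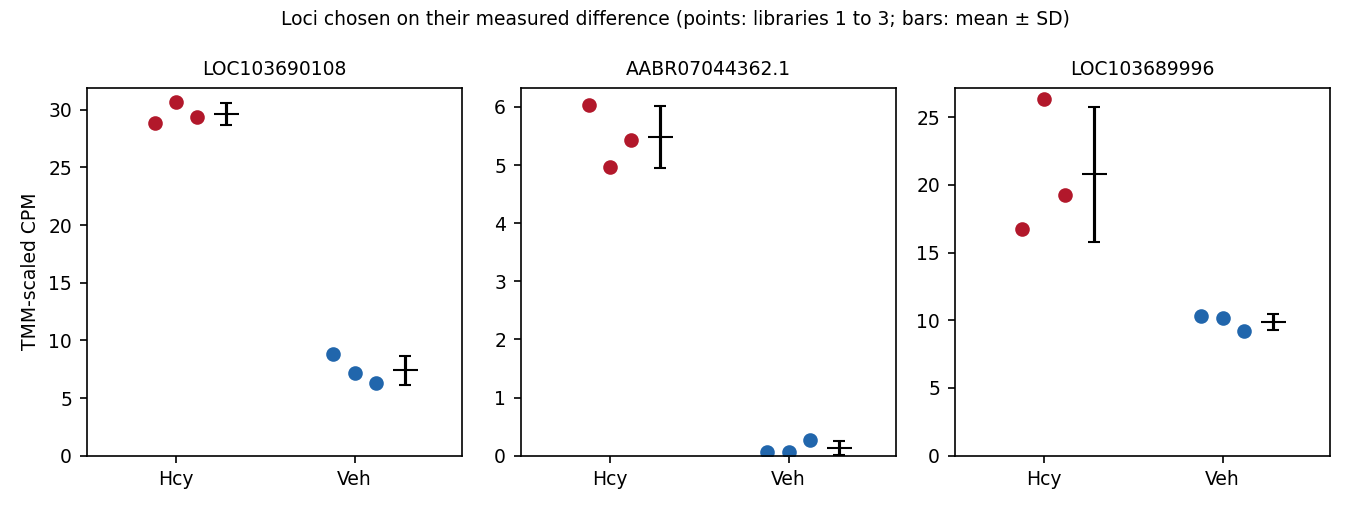
TMM-scaled CPM of LOC103690108, AABR07044362.1 and LOC103689996 in each of the 6 libraries, with each group's mean ± SD (n = 3) beside the points and axes that start at 0. Hcy libraries lie above Veh libraries in each panel, at 28.9 to 30.7 against 6.30 to 8.79 CPM for LOC103690108, 4.97 to 6.03 CPM against at most 0.277 CPM for AABR07044362.1, and 16.7 to 26.3 against 9.21 to 10.3 CPM for LOC103689996.

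Among the 132 other tested rows of the RT1 span, those whose log2 CPM followed each locus most closely over the 6 libraries (Pearson correlation, with a pseudocount of 0.5) were AC120486.3, AABR07044362.1 and RT1-S3 for LOC103690108. They were AC120486.3, LOC103690108 and RT1-T24-4 for LOC103689996, and RT1-S3, LOC103690108 and LOC100364500 for AABR07044362.1. AC120486.3, a processed pseudogene with a class I match, had 8, 10 and 11 counts in Hcy and 6, 5 and 5 in Veh. LOC100364500, with a class I match, had 14, 16 and 15 counts in Hcy and 6, 7 and 8 in Veh. Since the 6 libraries fall into 2 groups, these likenesses restate the group difference, and no pooled coefficient is given.

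Many of these rows share their protein match. The same rat class I entry was matched by 21 rows of the table, 12 of them members, including LOC103690108, RT1-A1, RT1-A2, the RT1-CE rows and the RT1-T24 rows. Of the 30 tested members, 16 overlapped another row, and RT1-CE4 and RT1-CE7, listed as long gene models, overlapped 23 and 19 rows. LOC103690108 overlapped AABR07044383.1, another row with a class I match, which had 14, 5 and 10 counts in Hcy and 2, 10 and 3 in Veh.

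The pair of Tap2 rows shows how a sum over copies differs from a single row. Tap2 and LOC103689996 together had 20.3, 29.1 and 21.1 CPM in Hcy and 13.2, 17.8 and 12.3 CPM in Veh, which is 23.5 ± 4.88 against 14.4 ± 2.92 CPM (SD, n = 3) and a ratio of 1.62. Tap2 itself held 17.4%, 9.47% and 8.50% of the pair's counts in Hcy and 22.0%, 43.0% and 25.3% in Veh. The row named Tap2 had a log2 fold change of -0.77 that did not pass and was -0.17 without Veh2, while its copy, chosen for its difference, and the sum of both were higher in Hcy. Rows with the same match as RT1-DMa, RT1-DMb and Psmb8 also lie beside LOC103689996. LOC108348072, which shares its match with RT1-DMa, was at or under 0.415 CPM in every library. AABR07044414.1, which shares its match with Psmb8, left Psmb8 with 98.0% to 99.8% of the counts of that pair.

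Brd2, a gene of the class II region that is no member, also had a pair of rows, and each stood apart in a single library. The row AC098547.1 had 562 counts in Veh1 and 47 to 109 in the other libraries, and the row LOC108348112 had 251 counts in Hcy3 and 34 to 81 elsewhere. These spreads are between libraries of 1 group. LOC108348112 is listed at chr20:5262120-5269337, near LOC103689996, whose Hcy libraries ran from 16.7 to 26.3 CPM. AC098547.1 is listed at chr20:3910555-3917426, in the class II region and away from LOC103689996. Whether alleles or the assignment of reads among copies took part in the members' values was not tested.

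**Figure D4:**
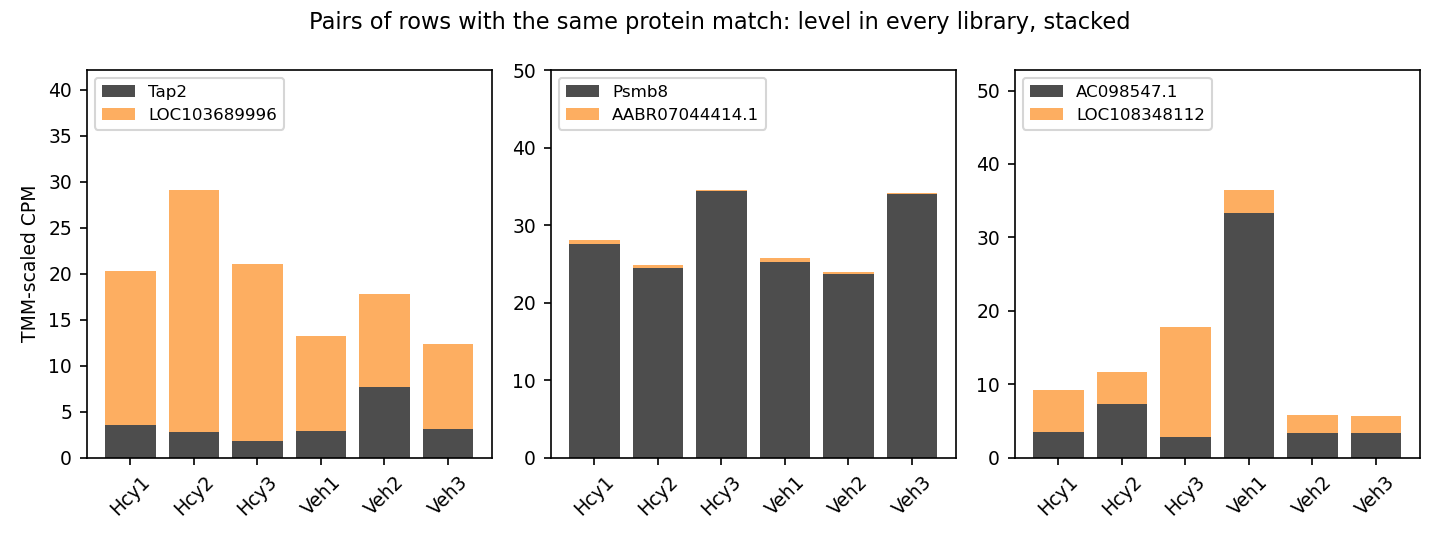
Stacked TMM-scaled CPM in each library for pairs of rows with the same protein match: Tap2 with LOC103689996, Psmb8 with AABR07044414.1 and the Brd2 rows AC098547.1 with LOC108348112. LOC103689996 makes up most of the Tap2 pair in all 6 libraries, Psmb8 nearly all of its pair, and AC098547.1 reaches 33.4 CPM in Veh1 alone.

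Of the 21 members chosen by name that reached 1 CPM in some library, 1 differed by at least 4-fold between libraries of a group (4.76%), where the share was 3.22% of all genes at that level (1.92% for a spread among Hcy libraries, 1.98% among Veh libraries) and 5.95% of the 84 other rows of the span. This row was RT1-T24-1, with 9, 17 and 18 counts under Hcy and 4, 19 and 5 under vehicle, and Veh2 was thus at the Hcy level. The spread among its Veh libraries was 5.10-fold, and its log2 fold change of 0.67 (SE 0.60) had an edgeR adjusted p of 0.706. It was 1.70 without Veh2 and 0.29 without Veh1. The 5 other rows of the span with such a spread all had it among Veh libraries. One was AABR07044421.1, a class I pseudogene inside RT1-A1, with 1 count in Veh1 and 33 to 55 in the other libraries, and another was AABR07044404.1, a class I row overlapping RT1-CE4 and RT1-CE7, with 15, 1 and 4 counts in Veh.

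The RT1 span of the table runs over 5267025 bases of chromosome 20 and holds 302 rows that are no members, of which 108 were tested. None of the 108 passed the adjusted p with edgeR, and 14 had an unadjusted p under 0.05, which is 13.0% beside 13.4% of all genes. Of these 14, 12 were higher in Hcy (11.1%, beside 7.44% of all genes) and 2 lower (1.85%, beside 5.95%). Their median log2 fold change was 0.02. Groups did not overlap in 17 of them (15.7%), beside 20.1% of all genes, with 14 higher and 3 lower in Hcy.

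**Figure D5:**
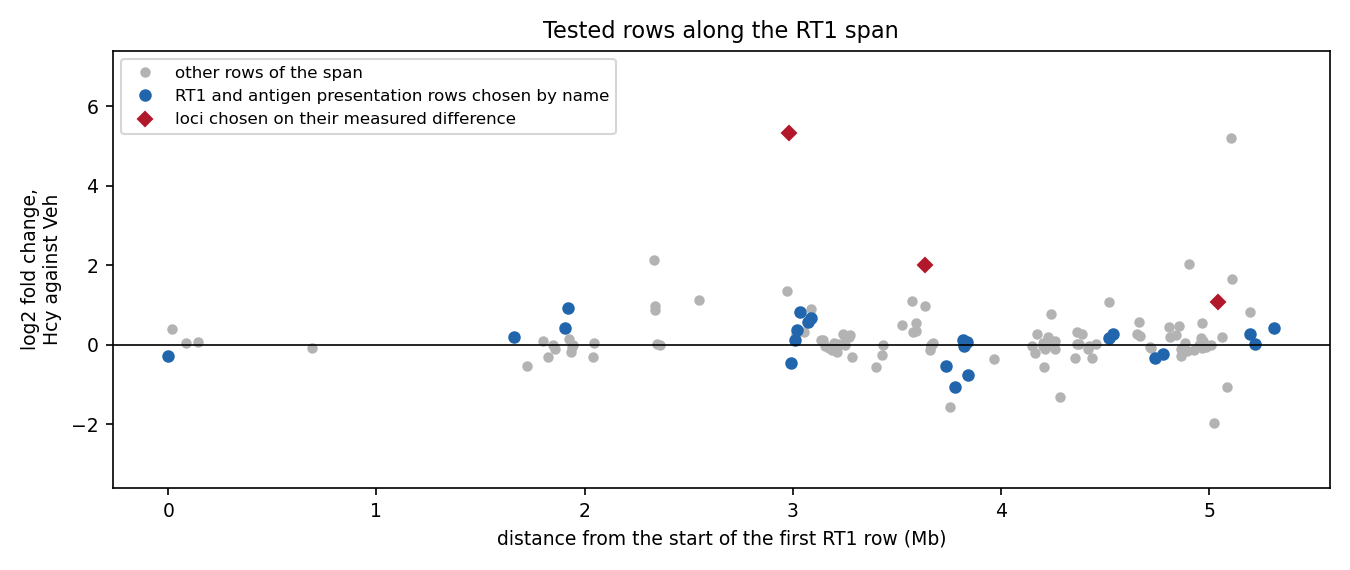
Log2 fold change of Hcy against Veh for every tested row of the RT1 span on chromosome 20, by the distance of its start from the first RT1 row in Mb, with members chosen by name, the 3 loci and other rows marked. Most rows lie near 0, the 3 loci lie at 1.07, 2.00 and 5.33, and the other row above 5 is AABR07044415.1, whose 13 counts were all in Hcy2.

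Genes of the pathway outside the chosen rows were taken as 6 lists with 55 genes in the table, of which 50 were tested. At the adjusted p, 1 of the 50 rose, beside 1.32% of all genes, and 1 fell, beside 1.01%, so these counts were near the general rate, and the median log2 fold change was 0.03. Tapbpl, which encodes the tapasin-like peptide editor TAPBPR, rose from 19.3, 18.5 and 19.2 CPM in Veh to 27.4, 27.7 and 30.0 CPM in Hcy (log2 fold change 0.57, SE 0.09, edgeR adjusted p = 0.0145). Tapbpl and Tapbp, the related editors, were thus both higher in every Hcy library, as were 10.8% of all genes tested. Procr, the endothelial protein C receptor with a class I-like fold, fell from 459, 445 and 544 CPM to 324, 296 and 313 CPM (log2 fold change -0.63, edgeR adjusted p = 0.0102).

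In the list of 8 loading and trimming helpers, Tapbpl was the 1 gene that passed, and the trimming enzyme Erap1 had a log2 fold change of 0.27 (edgeR adjusted p = 0.0967). None of the 6 proteasome activator and constitutive subunits passed. None of the 19 tested genes of interferon-gamma signalling and class I and II control passed either. Irf1, a transcription factor that binds the ISRE, had 29.2, 23.7 and 27.4 CPM in Hcy and 22.1, 17.3 and 21.9 CPM in Veh (log2 fold change 0.39, edgeR adjusted p = 0.203). Irf8 pointed the other way, with 9.91, 11.2 and 8.12 CPM in Hcy and 17.7, 14.5 and 14.7 CPM in Veh (log2 fold change -0.69, edgeR adjusted p = 0.0535). None of the 7 tested class II processing genes and none of the 5 tested costimulatory ligands passed, and Cd86, a ligand for T cell costimulation, had 0 counts in every library.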

How the data were processed

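RNA-seq counts of 6 rBMEC libraries (3 Hcy, 3 Veh) were grouped by their titles. The deposited values are counts of reads that the authors assigned to each of 33566 gene rows, not normalized, with gene positions, and gene lengths as a further deposited value in bases. The submitters' processing notes name fastp, HISAT2 2.2.1, StringTie 2.2.3, Cufflinks, featureCounts 2.0.6 and DESeq2 1.42.0, and the study's methods name mRatBN7.2, but the table names no build. A second deposited table, with the authors' normalized values, fold changes and p-values, was not used.

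The analysis was run in R 4.3.3 with edgeR 4.0.16 and DESeq2 1.42.0, and figures were drawn with matplotlib. Rows with at least 10 counts over the 6 libraries (14603) were kept, scaled by TMM and compared by the quasi-likelihood test of edgeR on a condition-only design, with Benjamini-Hochberg adjustment over all of them and limits of 0.05 for the adjusted p and 1 for the size of the log2 fold change. The procedure was tested on simulated data. Intervals and the 3-count floor cover counting error only. The members and lists were chosen with earlier results of these data known. Every member with at least 10 counts was named, with values per library for those past the adjusted p, the 3 loci, library-dependent rows, RT1-A1, RT1-A2, RT1-Da and the antigen presentation genes. Other rows with values per library, and the genes named from the pathway lists, were chosen after their values were seen. Alternatives were DESeq2, its size factors, library totals, other count minimums, a prior count of 2, the replicate number as a block, other limits on spread, other rows in the class I sum (1 of these sums added after seeing the data) and leaving out each library. Methylation and protein data were not analysed here. Some results are not reported here.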

Additional observations from a re-analysis of the deposited data

How the results depend on the processing

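Across all genes, 71 passed both limits, 109 with no count minimum beyond 1 count, and 39 to 112 when a library was left out, while 0 members chosen by name passed in any of these fits or alternatives. The number of members past the adjusted p alone was 3, with DESeq2 the same RT1-S3, RT1-T24-4 and Tapbp, and 0 to 4 without a library: 0 without each Hcy library, 1 without Veh2 and 4, Psmb10 included, without Veh3. With the replicate number as a block it was 1, RT1-T24-4, with adjusted p of 0.0595 for RT1-S3 and 0.0562 for Tapbp, and all genes called numbered 82. Same-numbered libraries deviated together with a mean correlation of 0.0917, different numbers with -0.05, and 3 of 6 libraries correlated best with their own number. The numbers were not taken as pairs in the main fit. With so few libraries, these values cannot show whether same-numbered libraries shared rats or isolations. The class I ratio of 1.11 was 1.09 to 1.16 without a library. With the 3 loci added, which were chosen for being higher in Hcy and of which LOC103689996 is a Tap2 match and no class I row, the ratio of that wider sum was 1.23, and with the 2 class I loci alone it was 1.20. With a limit of 5 CPM, 0 members had library-dependent levels. No direction changed under another scaling, count minimum or tool. Leaving out a library turned the direction of 7 members, with log2 fold changes of -0.0515 to 0.122 for RT1-A2, -0.0300 to 0.415 for RT1-CE4, -0.30 to 0.96 for RT1-M6-1, -0.65 to 0.49 for RT1-CE3, -0.0907 to 0.235 for Psmb8, -0.0363 to 0.138 for B2m and -0.0515 to 0.0133 for Tap1. The cause was not tested.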
